A study of Mus musculus with 13 samples.

Results

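The genes described here encode 10 subunits of the mouse SWI/SNF chromatin remodelers: Smarca4, Smarca2, Smarcb1, Smarcc1, Smarcc2, Smarcd2, Arid1a, Arid1b, Arid2 and Pbrm1. They were picked by symbol from the 24328 genes quantified by RNA sequencing in each of 13 libraries of bone marrow origin. There was 1 library for each of 3 kinds of cells: mAML, the cells labelled mature AML cells; LSC, leukemia stem cells; and GMP, granulocyte-monocyte progenitors of wild-type mice. The other 10 libraries were LSC exposed to A-485 for 0, 8, 24, 48 or 72 h, with 2 libraries a time, and the 0 h cells were untreated. The leukemia cells carried the MLL-AF10 fusion and were grown in RPMI 1640 with serum and WEHI-conditioned medium. No dose, no vehicle control and no number of animals or clones is given in the labels, and nothing in them says that replicates are independent cultures, so p-values measure the spread between these libraries alone, which may be technical. All 10 genes were expressed in every library, with 343 to 14460 estimated reads each, and all 10 passed the filter on low counts.

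SWI/SNF remodelers use the energy of ATP to slide or eject nucleosomes. Each complex is built around 1 of 2 exclusive ATPases, BRG1 (encoded by Smarca4) or BRM (Smarca2), on a scaffold of SMARCC subunits with a SMARCD subunit. SMARCB1 belongs to the canonical BAF and the PBAF forms. The canonical BAF form adds ARID1A or ARID1B, and the PBAF form adds ARID2 and the multi-bromodomain protein PBRM1. Mouse leukemias driven by MLL fusions are known to depend on Smarca4, and Smarcd2 is known for its role in granulocyte maturation. A-485 inhibits the acetyltransferase activity of p300 and CBP, which place acetyl groups on histones, and bromodomains bind such groups. Transcripts of both drug targets rose by 8 h of A-485, by 1.22 ± 0.14 (log2 change ± SE) for Ep300 and by 1.67 ± 0.13 for Crebbp (edgeR quasi-likelihood test, Benjamini-Hochberg adjusted p = 0.000342 and 6.23e-05, n = 2 libraries a time).

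Library totals were 47257642 estimated reads for mAML, 40468515 for LSC and 24532508 for GMP, and 6467764 to 9763276 in the time course. Summed progenitor markers (7 genes, among them Kit, Mpo and Elane) reached 2397 TPM (transcript abundance scaled to depth and transcript length) in mAML, 30192 in LSC and 40047 in GMP, and 8 mature neutrophil markers reached 89094, 21978 and 1909 TPM in the same libraries. Cd34, alone of the 7 progenitor genes, was higher in mAML than in LSC, at 141 and 40.0 TPM, with 254 TPM in GMP. In the time course the progenitor sum lay at 9649 to 10051 TPM at 0 h and at 148 to 1448 TPM in the 8 treated libraries. Cd34 stood at 226 and 248 TPM at 0 h and at 76.5 to 140 TPM under A-485. At 72 h its 105 and 108 TPM made up most of the progenitor sums of 175 and 148 TPM. The 9 T and NK markers summed to 103 to 198 TPM at 0 h and to 4.29 to 29.8 TPM under A-485, with 2 and 3 of them at 0 in the untreated libraries and 3 to 7 in each treated one. Nkg7, which stood at 996 TPM in GMP, made up most of the untreated sums (182 and 92.2 TPM), and the other 8 summed to 16.2 and 10.5 TPM at 0 h and to 2.38 to 12.8 TPM under A-485. Neutrophil markers separated the 0 h replicates, at 6356 and 1340 TPM. The RNA of a mixed sample does not show whether fewer cells of a type or less RNA per cell lowers a level, and the part these markers play in the results below was not tested.

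Untreated LSC expressed the 10 genes at 13.2 to 90.4 TPM, the measure that divides reads by transcript length. Smarcd2 stood highest at 90.4 ± 5.32 TPM (SD, n = 2 libraries, as for all levels of the time course), ahead of Smarcb1 at 55.9 ± 0.820, Smarcc2 at 47.7 ± 3.57, Smarca4 at 40.6 ± 0.622 and Arid1a at 38.4 ± 0.339. Below these came Smarcc1 at 29.9 ± 3.53, Smarca2 at 27.1 ± 1.499, Arid2 at 18.6 ± 0.530, Pbrm1 at 17.1 ± 1.24 and Arid1b at 13.2 ± 1.153 TPM. Among neighbours in this order, the libraries overlapped for Smarcc1 and Smarca2. After 72 h of A-485 Smarcd2 was still first, at 163.0 ± 1.41 TPM, followed by Smarcc2 at 131 ± 11.3 and Arid1a at 98.5 ± 13.8. Smarcb1, next to Smarcd2 before treatment, now ranked 5 at 67.6 ± 1.63 TPM, and its libraries lay within the range of those of Smarca4 (62.3 and 85.0 TPM). TPM of most genes was higher in treated libraries, by a median over all genes of 0.41 to 0.62 on the log2 scale, so the order within a time is the comparison these values allow.

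**Figure D1:**
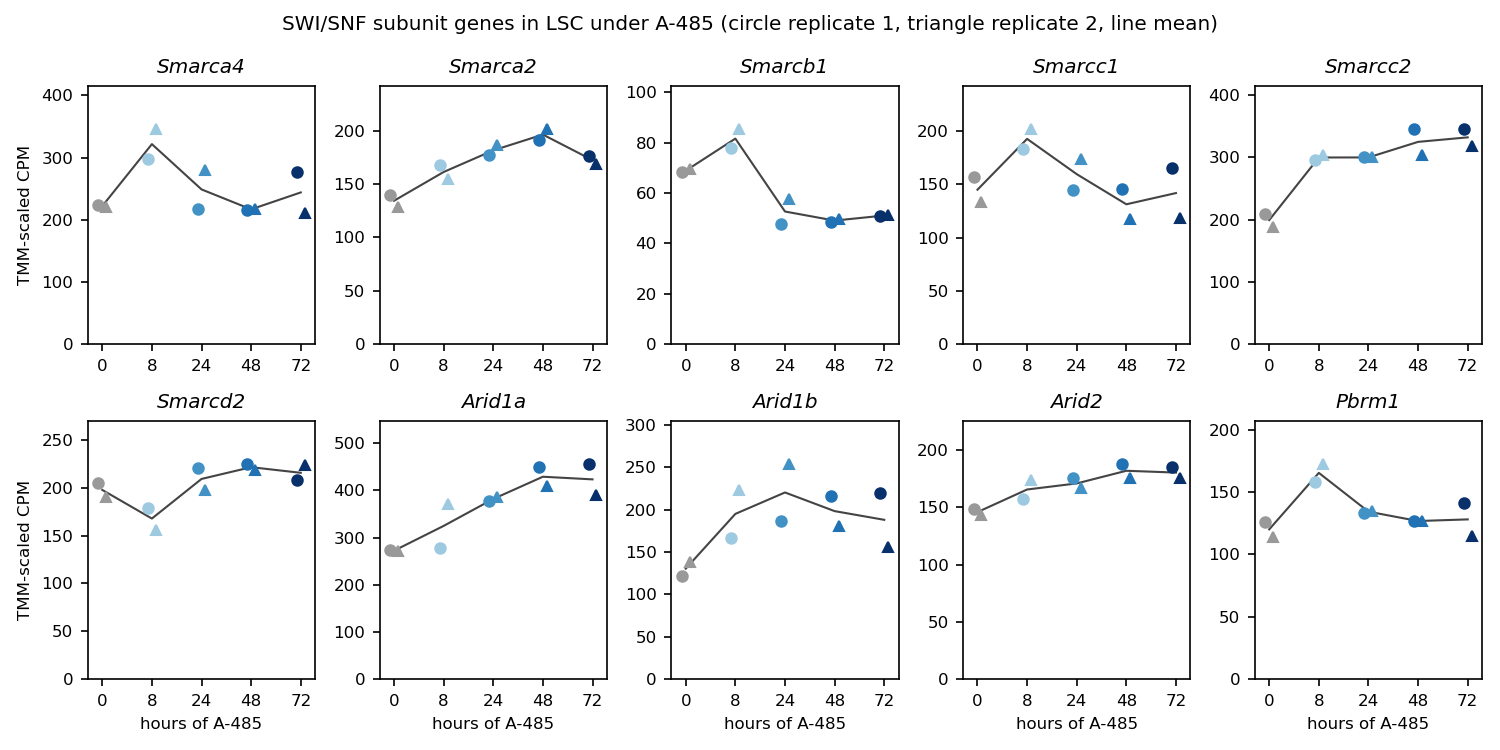
TMM-scaled CPM (vertical axes, each from 0) of the 10 genes against hours of A-485 (horizontal axes). Circles and triangles are replicates 1 and 2, and the line joins their means. Smarcc2 and Arid1a climb and stay up, Smarca4 and Pbrm1 peak at 8 h, and Smarcb1 on this scale lies near 50 CPM from 24 h, against 68.2 and 69.5 CPM at 0 h.

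The changes below are on another scale, read counts relative to the TMM-scaled library total (CPM), which sets the typical gene to no change, and were tested with edgeR across 11119 genes. They are given as log2 change ± SE against 0 h with the Benjamini-Hochberg adjusted p, and a gene was called changed when that p was under 0.05.

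Both ATPase genes were called higher under A-485, Smarca4 at 8 h and Smarca2 at 24, 48 and 72 h. Smarca4, the gene of BRG1, stood at 224 and 220.1 CPM at 0 h, 298 and 346 CPM at 8 h, 218 and 280.3 CPM at 24 h, 216 and 218 CPM at 48 h, and 276.5 and 212 CPM at 72 h. Both 8 h libraries were above both untreated ones, and both 48 h libraries were just below them, and the 24 and 72 h libraries lay on both sides of them. The rise at 8 h was 0.53 ± 0.16 (edgeR adjusted p = 0.0277); the changes at 24, 48 and 72 h were 0.16, -0.034 and 0.14 (adjusted p = 0.414 to 0.869). The 8 h call was lost without either 0 h library (adjusted p = 0.0823 and 0.0961) or without replicate 2 of 8 h (0.135).

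Smarca2, the gene of BRM, rose and stayed up. Its values were 140.0 and 129 CPM at 0 h, 168 and 154 CPM at 8 h, 177 and 186 CPM at 24 h, 191 and 201 CPM at 48 h, and 176 and 168 CPM at 72 h. Every treated library exceeded both untreated ones. The log2 changes were 0.26 ± 0.10 at 8 h (edgeR adjusted p = 0.0576), 0.43 ± 0.10 at 24 h (0.00599), 0.55 ± 0.10 at 48 h (0.00151) and 0.36 ± 0.10 at 72 h (0.0122). The 8 h change was called with the trend on transcript length removed (0.31, edgeR adjusted p = 0.0400), with library size alone (0.58, edgeR adjusted p = 0.00173) and on the TPM scale (0.69, limma adjusted p = 0.000987). The median of all genes at 8 h was itself 0.17, 0.33 and 0.41 in these settings. The calls at 24 and 48 h held in all 10 fits that left out 1 library. At 72 h the call was lost without replicate 2 of 0 h or replicate 1 of 72 h (adjusted p = 0.0556 and 0.0636).

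Of the scaffold genes, Smarcc2 gave the steadiest response of the 10 genes. It stood at 210 and 189 CPM at 0 h, 296 and 304 CPM at 8 h, 299.9 and 299.8 CPM at 24 h, 345 and 304 CPM at 48 h, and 345 and 319 CPM at 72 h. All 8 treated libraries were well above both untreated ones. It rose by 0.59 ± 0.10 at 8 h, 0.59 ± 0.10 at 24 h, 0.70 ± 0.10 at 48 h and 0.74 ± 0.10 at 72 h (edgeR adjusted p = 0.00254, 0.00178, 0.000522 and 0.000419). Each of these calls held in all 10 fits that left out 1 library. Its paralog Smarcc1 was called at no time. Smarcc1 stood at 157 and 133 CPM at 0 h, 183 and 202 CPM at 8 h, 145 and 174 CPM at 24 h, 145 and 117 CPM at 48 h, and 165 and 118 CPM at 72 h. Only the 8 h libraries lay above both untreated ones, with a change of 0.41 ± 0.18 (adjusted p = 0.108); from 24 h the groups overlapped.

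Smarcb1, the core subunit lost in rhabdoid tumors, was the single member called lower against 0 h. It stood at 68.2 and 69.5 CPM at 0 h, 77.8 and 85.4 CPM at 8 h, 47.5 and 57.8 CPM at 24 h, 48.4 and 49.8 CPM at 48 h, and 50.7 and 51.4 CPM at 72 h. The 8 h libraries were above the untreated ones and all later ones were below them. It fell by 0.39 ± 0.13 at 24 h, 0.49 ± 0.13 at 48 h and 0.43 ± 0.13 at 72 h on the log2 scale (edgeR adjusted p = 0.0319, 0.0109 and 0.0189). On the TPM scale the sign of these changes reversed, to 0.12, 0.19 and 0.27 (limma adjusted p = 0.394, 0.181 and 0.0666). The median of all genes on that scale was 0.43, 0.56 and 0.62, so Smarcb1 still lay below the typical gene. The calls depended on transcript length and on single libraries. In 3 to 5 of the 10 fits that left out 1 library they were lost at each time, among them the fits without either 0 h library (adjusted p = 0.0640 to 0.143). The fall between 8 and 72 h, at -0.68 ± 0.13 (adjusted p = 0.00453), was called in all 10 such fits.

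Smarcd2 was called at no time against 0 h. It stood at 205 and 191 CPM at 0 h, 179 and 156 CPM at 8 h, 221 and 198 CPM at 24 h, 225 and 218 CPM at 48 h, and 208 and 224 CPM at 72 h. Both 8 h libraries were below the untreated ones, and both 48 h and both 72 h libraries were above them. The changes were -0.24 ± 0.11, 0.081 ± 0.11, 0.16 ± 0.11 and 0.12 ± 0.11 (edgeR adjusted p = 0.110, 0.548, 0.222 and 0.345).

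Arid1a and Arid1b encode the alternative ARID subunits of BAF. Arid1a had 273 and 271 CPM at 0 h, 278 and 371 CPM at 8 h, 378 and 386 CPM at 24 h, 449 and 408 CPM at 48 h, and 456 and 390.5 CPM at 72 h. Every treated library exceeded both untreated ones, by little in replicate 1 of 8 h. The change was 0.26 ± 0.14 at 8 h (edgeR adjusted p = 0.183), and Arid1a rose by 0.49 ± 0.14 at 24 h (0.0199), 0.66 ± 0.14 at 48 h (0.00445) and 0.64 ± 0.14 at 72 h (0.00527). The 48 and 72 h calls held in all 10 fits that left out 1 library, and the 24 h call was lost without either 0 h library or replicate 2 of 24 h (adjusted p = 0.0670 to 0.0736).

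Arid1b had changes as large with wider spread between replicates. It had 122 and 139 CPM at 0 h, 167 and 223 CPM at 8 h, 187 and 254 CPM at 24 h, 216 and 181 CPM at 48 h, and 220.0 and 156 CPM at 72 h. The treated libraries were again above the untreated ones at each time, but the replicates of 8, 24 and 72 h differed by 0.42 to 0.49 on the log2 scale. Changes of 0.58 ± 0.22, 0.76 ± 0.22, 0.61 ± 0.22 and 0.53 ± 0.22 gave adjusted p = 0.0657, 0.0202, 0.0439 and 0.0698, so that it was called higher at 24 and 48 h. Without either 0 h library or replicate 2 of 24 h the 24 h call was lost (adjusted p = 0.0518 to 0.121), and without either 0 h or either 48 h library the 48 h call was (0.0648 to 0.209).

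The PBAF genes followed different courses. Arid2 rose little: it had 149 and 143 CPM at 0 h, 157 and 174 CPM at 8 h, 175 and 166 CPM at 24 h, 188 and 176 CPM at 48 h, and 185 and 176 CPM at 72 h. No treated library overlapped the untreated ones. The rises of 0.32 ± 0.10 at 48 h and 0.31 ± 0.10 at 72 h were called (edgeR adjusted p = 0.0200 and 0.0236), and those of 0.18 at 8 h and 0.23 at 24 h were not (0.158 and 0.0743). The 48 h call was lost without replicate 2 of 0 h or replicate 1 of 48 h (adjusted p = 0.0612 and 0.122), and the 72 h call without any of the 4 libraries of 0 and 72 h (0.0521 to 0.109).

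Pbrm1 followed the course of Smarca4 instead. It had 126 and 114 CPM at 0 h, 158 and 173 CPM at 8 h, 133 and 135 CPM at 24 h, 126 and 127 CPM at 48 h, and 141 and 115 CPM at 72 h. The 8 h libraries stood clear of all others. The rise at 8 h was 0.46 ± 0.12 (edgeR adjusted p = 0.0151), and from 24 h the change was 0.078 to 0.16 with adjusted p = 0.284 to 0.602. Leaving out replicate 2 of 0 h or replicate 2 of 8 h ended the 8 h call (adjusted p = 0.0769 and 0.0802).

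**Figure D2:**
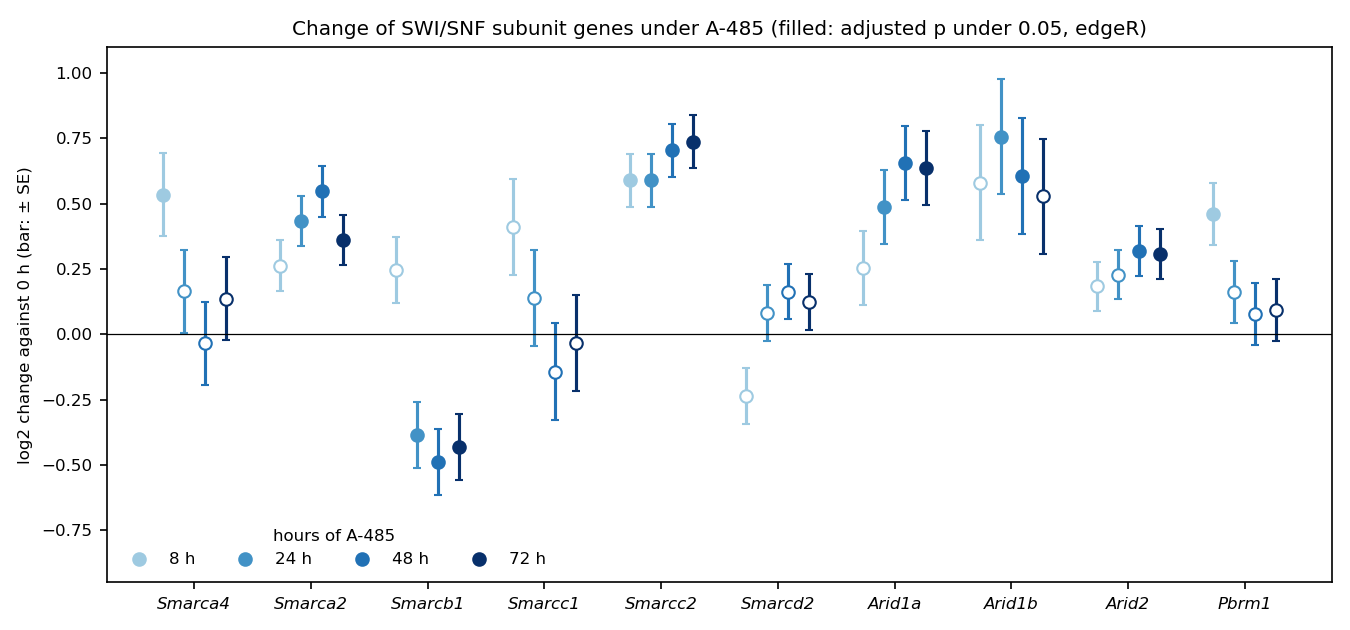
Log2 change against 0 h (vertical axis) of the 10 genes (horizontal axis) at 8, 24, 48 and 72 h of A-485, from light to dark. Bars are standard errors of the edgeR fit over 10 libraries, and filled points have an adjusted p under 0.05. Smarcc2 is filled at all 4 times, and Smarcb1 is the gene with filled points below 0.

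Counted together, 3 of the 10 SWI/SNF members were called higher and 0 lower at 8 h, where 17.9% of all genes tested were called higher and 21% lower. At 24 h, 4 were called higher and 1 lower, against 23.2% and 27.1% of all genes. At 48 h, 5 were higher and 1 lower, against 25.2% and 30.5%, and at 72 h 4 were higher and 1 lower, against 25.9% and 29.4%. Without regard to the test, both libraries lay above both untreated ones for 9, 6, 7 and 6 members at the 4 times, and below them for 1, 1, 2 and 1. Over all genes, 36.7%, 36.6%, 39.7% and 39.1% lay above in this way and 36.4%, 40.2%, 43.5% and 41.8% below. The median change of the 10 genes was 0.34, 0.20, 0.24 and 0.22 at the 4 times, against 0.015, -0.027, -0.042 and -0.021 over all genes. With the trend on transcript length removed it was 0.467, 0.189, 0.242 and 0.277, against 0.168, 0.155, 0.225 and 0.245 over all genes. From 24 h the 10 genes then lay close to the typical gene by this measure. In the joint test of all treated times, Smarcc2, Smarcb1, Smarca2, Arid1a and Pbrm1 were called (edgeR adjusted p = 0.00195, 0.00347, 0.00930, 0.0152 and 0.0440), 5 of 10 where 59.8% of all genes were. Between 8 and 72 h, 1 member was higher at 72 h (Smarcd2) and 2 were lower (Smarcb1 and Pbrm1), with 15.1% and 17.2% of all genes called in these directions.

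The direction of several members rested on the scaling between libraries. TMM factors were 0.830 and 0.832 at 0 h and 1.03 to 1.07 under A-485. With library size alone in their place, the median of all genes moved to 0.28 to 0.35 above 0 h, 9, 8, 7 and 8 of the 10 SWI/SNF members were called higher at 8, 24, 48 and 72 h, and 0 were called lower. On that scale all genes called higher and lower numbered 4078 and 1520 at 8 h, 4175 and 2012 at 24 h, 4415 and 2337 at 48 h, and 4616 and 2228 at 72 h, in place of 1987 and 2337, 2584 and 3011, 2799 and 3387, and 2876 and 3272. Smarcb1 was then -0.14 at 48 h and -0.065 at 72 h (adjusted p = 0.377 and 0.676). All changes above are therefore relative to the typical gene.

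Removing the trend on transcript length changed calls of 5 members, Smarcb1, Smarcd2, Smarca2, Arid1b and Arid2. Mean length of the sequenced transcripts, weighted by reads, was 3115 to 3128 nt at 0 h, 3299 to 3469 nt at 8 h and 3670 to 3793 nt at 48 and 72 h, and the nuclear RNA Malat1 stood at 266 to 272 CPM (without TMM scaling) at 0 h and 2853 to 3276 CPM at 72 h. Smarcb1, with an effective length of 1401 nt the shortest of the 10, had changes of -0.071, -0.052 and -0.015 at 24, 48 and 72 h once the trend of counts on length was removed from each library (edgeR adjusted p = 0.688 to 0.936), and it was called higher at 8 h (0.47 ± 0.14, adjusted p = 0.0235). Smarca2, at 5522 nt, gained the 8 h call given above. Smarcd2, the next shortest at 2439 nt, was then called higher at 24, 48 and 72 h, by 0.26 ± 0.10, 0.42 ± 0.10 and 0.38 ± 0.10 (adjusted p = 0.0485, 0.00525 and 0.00833). Calls were lost for the long transcripts of Arid1b at 48 h (11086 nt; 0.35, adjusted p = 0.166) and Arid2 at 48 and 72 h (8790 nt; 0.14 and 0.21, adjusted p = 0.213 and 0.0731). Smarcc2, of medium length at 4681 nt, kept its calls, with 0.56 to 0.74 at the 4 times. In this setting the median of all genes was not 0 but 0.168, 0.155, 0.225 and 0.245 at 8, 24, 48 and 72 h. Calls here are against 0 and not against that median. From 24 h Smarcb1 still lay below the median of all genes, and Smarcd2 lay above it by less than its change from 0.

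**Figure D3:**
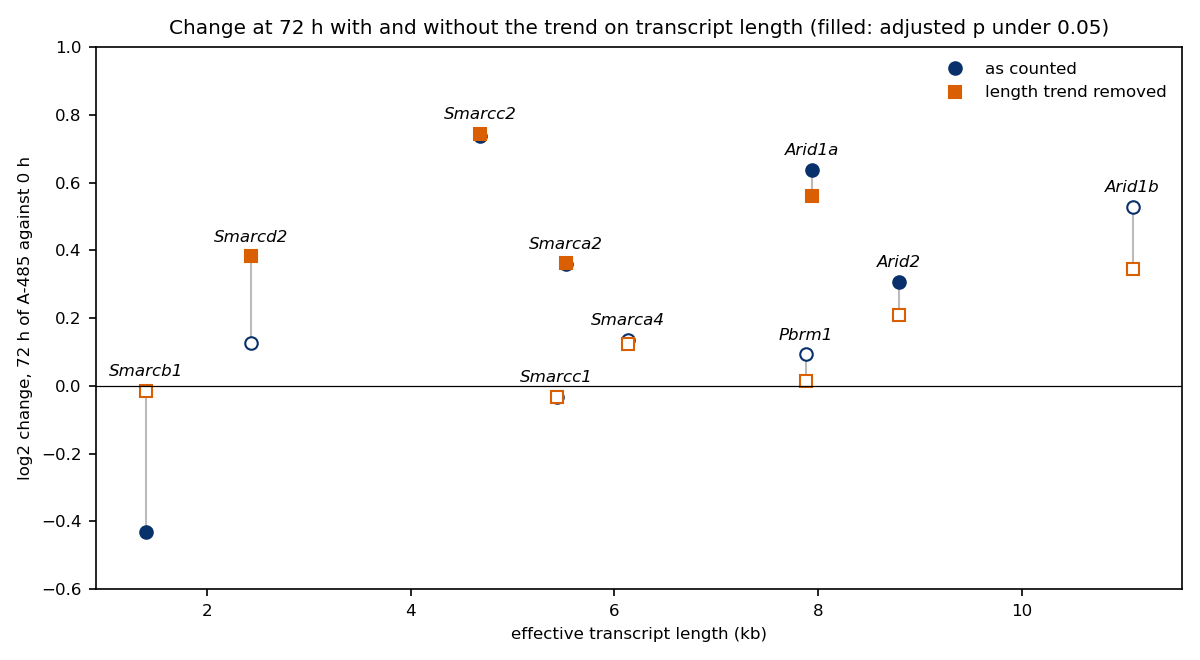
Log2 change at 72 h of A-485 against 0 h (vertical axis) by effective transcript length in kb (horizontal axis) for the 10 genes, as counted (circles) and with the trend on transcript length removed (squares). Filled symbols have an adjusted p under 0.05. The symbols lie apart for Smarcb1 and Smarcd2, at 1401 and 2439 nt, and nearly coincide between 4681 and 6130 nt.

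Promoter sequence from RefSeq (GRCm38.p6; the reads were counted on mm9) was matched for 9 of the 10 genes, with 10 start sites. It is shown for the gene that rose at every time, Smarcc2, the ATPase gene that stayed up, Smarca2, and the members with the shortest transcripts, Smarcb1 and Smarcd2. Each is the 100 bases just upstream of the start, 5′ to 3′ on the strand of the gene, with CG dinucleotides in capitals: Smarcc2 at chr10:128459136-128459235 (+), Smarca2 at chr19:26605060-26605159 (+), Smarcb1 at chr10:75921615-75921714 (−) and Smarcd2 at chr11:106267633-106267732 (−).
Smarcc2: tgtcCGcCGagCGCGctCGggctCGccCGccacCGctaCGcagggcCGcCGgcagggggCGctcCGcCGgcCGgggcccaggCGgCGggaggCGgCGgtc
Smarca2: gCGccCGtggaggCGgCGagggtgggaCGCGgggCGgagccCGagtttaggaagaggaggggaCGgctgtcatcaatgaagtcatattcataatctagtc
Smarcb1: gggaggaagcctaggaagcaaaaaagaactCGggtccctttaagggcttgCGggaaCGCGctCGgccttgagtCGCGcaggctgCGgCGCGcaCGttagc
Smarcd2: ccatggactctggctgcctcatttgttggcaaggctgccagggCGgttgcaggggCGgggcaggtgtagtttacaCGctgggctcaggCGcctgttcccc
Over the 250 bases upstream of the start, Smarcc2 held 40 CG dinucleotides, Arid1b 37, Pbrm1 31, Smarca2 28, Smarca4 25, and Smarcb1 and Smarcc1 21 each, against a median of 6 over 32851 promoters; Arid1a held 33 and 18 at its starts. Smarcd2 stood apart with 4. Searched on both strands of the same 250 bases, the GC box GGGCGG was present in 7 of the 9 genes and in 32.74% of all promoters, the ETS motif CCGGAAG in Smarca2 and Smarcc1 (6.907%), the E-box CACGTG in Pbrm1 (6.021%) and the CRE palindrome TGACGTCA in 0 of the 9 (1.546%). The letters are a description of these windows.

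Whether the choice between paralogs shifted was read from ratios of TPM within each library, which do not depend on scaling between libraries. Smarcc2 to Smarcc1 was 1.55 and 1.65 at 0 h, 1.88 and 1.75 at 8 h, 2.40 and 2 at 24 h, 2.76 and 3.02 at 48 h, and 2.42 and 3.13 at 72 h. All 8 treated libraries lay above both untreated ones. The mean log2 ratio was 1.24 ± 0.32 in treated libraries (SD, n = 8) and 0.68 ± 0.06 in untreated ones (SD, n = 2), a difference of 0.57 with p = 0.0444 in a two-sided exact permutation test of 45 splits, whose smallest possible p is 0.0222, and 0.133 after Benjamini-Hochberg adjustment over the 3 ratios. Smarca2 to Smarca4 was 0.687 and 0.649 at 0 h, 0.622 and 0.490 at 8 h, and 0.701 to 1.02 from 24 to 72 h. The ATPase ratio was lowest at 8 h, when Smarca4 peaked, and its treated minus untreated difference of 0.20 had an exact permutation p of 0.467 (adjusted 0.700). Arid1b to Arid1a was 0.320 and 0.366 at 0 h and 0.286 to 0.471 under A-485, with overlapping groups and a difference of 0.10 (exact permutation p = 0.711, adjusted 0.711).

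**Figure D4:**
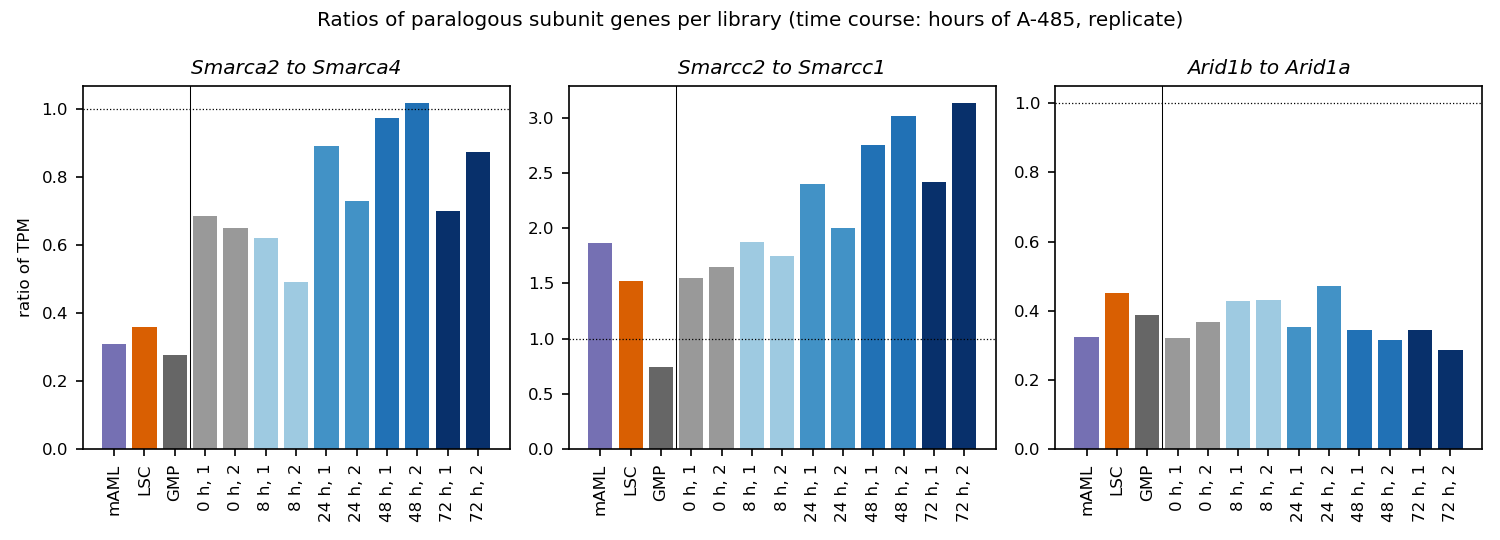
Ratio of TPM (vertical axes, from 0) of Smarca2 to Smarca4, Smarcc2 to Smarcc1 and Arid1b to Arid1a in each of the 13 libraries (horizontal axes); the dotted line marks equal TPM. Smarcc2 exceeds Smarcc1 in every library except GMP, and its ratio reaches 3.13 in replicate 2 of 72 h.

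Over the 10 libraries of the time course most members followed 1 of 2 kinds of course, grouped after their values were seen and described by Pearson correlations of log2 CPM across libraries that share their treatment. Smarca4, Smarcc1 and Pbrm1, which had their highest means at 8 h, correlated with each other at 0.86 to 0.91. Smarca2, Smarcc2, Arid1a and Arid2, the genes that stayed up, did so at 0.78 to 0.96, and Arid1b correlated with these 4 at 0.66 to 0.75. Smarcb1 and Smarcd2 ran opposite to each other at -0.92. Smarcb1 too had its highest mean at 8 h, and it correlated with Smarca4, Smarcc1 and Pbrm1 at 0.55 to 0.65. Smarcd2 correlated with the same genes at -0.85 to -0.74. Of all genes tested, those most like Smarca4 were Sf3a1 (0.985), Tti1 (0.983) and Otud6b (0.976), and those most like Smarca2 were Lysmd4 (0.966), Zfp59 (0.963) and Wdr60 (0.962). Replicate differences were shared between some times, and their part in these correlations was not tested.

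The single libraries of mAML, LSC and GMP ask whether subunit expression differs between mature leukemia cells, leukemia stem cells and normal progenitors. With 1 library a group there is no replicate check, and the intervals given are 95% exact binomial intervals that cover counting error only. None of the 10 genes differed 2-fold in any pair, while 19% of genes above 10 CPM did so between LSC and GMP, 19.7% between mAML and LSC and 31.7% between mAML and GMP.

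Smarcc1 was furthest from GMP in both leukemia libraries. It had 119 CPM in mAML, 136 CPM in LSC and 229.6 CPM in GMP. The log2 ratio was -0.94 (-0.998 to -0.89) for mAML against GMP and -0.76 (-0.81 to -0.70) for LSC against GMP. With library size alone, with TPM or with the length trend removed, the mAML against GMP ratio of Smarcc1 passed 2-fold, at -1.16, -1.23 and -1.10. The median of all genes was then -0.21, -0.28 and -0.23, against 0.017 as reported. Smarcc1 was therefore no further from the typical gene in these settings. Smarcc2 ran the other way, with 192 CPM in mAML, 178 CPM in LSC and 147 CPM in GMP, and the TPM ratio of Smarcc2 to Smarcc1 was 1.87 in mAML, 1.52 in LSC and 0.746 in GMP. The log2 ratio of Smarcc2 to GMP was 0.39 in mAML and 0.27 in LSC. It was 0.17 and 0.16 with library size alone, 0.064 and 0.039 with TPM, and 0.18 and 0.35 with the length trend removed. Arid1a had 330 CPM in mAML, 312 CPM in LSC and 244 CPM in GMP. Its log2 ratio to GMP was 0.44 (0.40 to 0.48) in mAML and 0.36 (0.31 to 0.40) in LSC, against 0.22 and 0.24 with library size alone and 0.12 in both with TPM. For LSC against GMP the median of all genes was -0.10 with library size alone, -0.20 with TPM and -0.036 with the length trend removed. Smarcc2 and Arid1a lay above the median of all genes in each of these settings, in mAML and in LSC. Arid1b was highest in LSC, with 148 CPM in mAML, 196 CPM in LSC and 131 CPM in GMP, which gave 0.58 (0.52 to 0.63) for LSC against GMP and -0.40 (-0.45 to -0.35) for mAML against LSC; these ratios were 0.33 with TPM for LSC against GMP and -0.78 with the length trend removed for mAML against LSC.

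Of the ATPase genes, Smarca4 had 218 CPM in mAML, 254 CPM in LSC and 256 CPM in GMP, and its interval for LSC against GMP, -0.056 to 0.033, included 0. Smarca2 had 60.9 CPM in mAML, 77.3 CPM in LSC and 62.0 CPM in GMP, so that it was higher in LSC against GMP by 0.32 (0.23 to 0.41) and lower in mAML against LSC by -0.34 (-0.42 to -0.27). The LSC against GMP ratio of Smarca2 was 0.21 with library size alone, 0.13 with TPM and 0.44 with the length trend removed, and the mAML against LSC ratio was -0.62 with that trend removed. The TPM ratio of Smarca2 to Smarca4 was 0.309 in mAML, 0.359 in LSC and 0.275 in GMP. Of the remaining members, Smarcb1 had 70.6, 86.1 and 77.4 CPM in mAML, LSC and GMP, Smarcd2 169, 178 and 210.3 CPM, Arid2 102, 131 and 135 CPM, and Pbrm1 137, 131 and 160.2 CPM. Smarcd2 and Pbrm1 were lower in both leukemia libraries than in GMP, and Arid2 was lower in mAML than in LSC by -0.37 (-0.42 to -0.31), or -0.68 with the length trend removed. With that trend removed the median of all genes for mAML against LSC was -0.23. The median log2 ratio of the 10 genes was -0.18 for mAML against GMP, 0.071 for LSC against GMP and -0.20 for mAML against LSC, against 0.017, 0.010 and -0.025 over all genes above 10 CPM. The T cell genes Cd3d, Cd3e and Cd3g stood at 13.03, 6.32 and 21.4 TPM in mAML, against 0 to 0.06 TPM in LSC and GMP. Of the 9 T and NK markers, Nkg7 went the other way, at 43.3 TPM in mAML, 153 in LSC and 996 in GMP. The other 8 summed to 238, 1.99 and 1.87 TPM in the same libraries. The part of T or NK cells in the ratios was not tested.

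**Figure D5:**
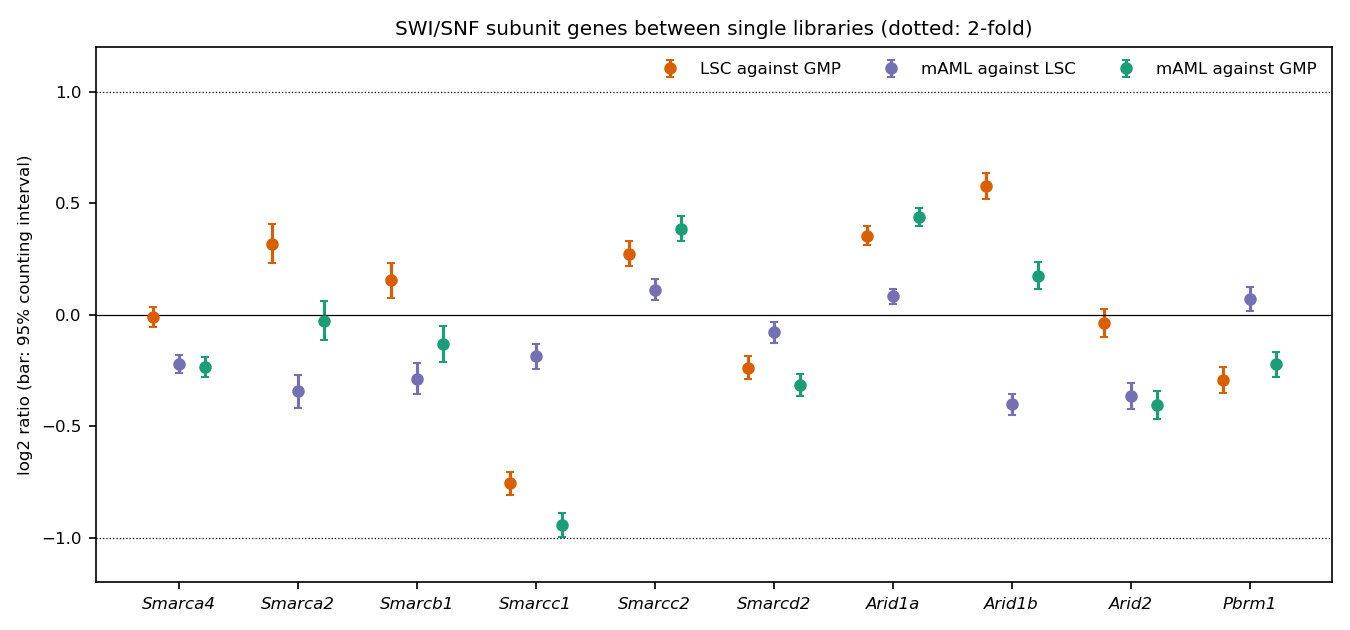
Log2 ratio of TMM-scaled CPM (vertical axis) of the 10 genes (horizontal axis) for LSC against GMP, mAML against LSC and mAML against GMP, with 1 library a group. Bars are 95% counting intervals, and dotted lines mark 2-fold. Smarcc1 comes nearest to 2-fold, at -0.94 in mAML against GMP.

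Of 18 other SWI/SNF subunit genes, listed from known complex composition, 16 passed the filter. Those called higher and lower numbered 4 and 1 at 8 h, 4 and 3 at 24 h, 5 and 3 at 48 h, and 5 and 3 at 72 h, shares to be read against the same percentages of all genes as above. The 6 with the smallest adjusted p of the joint test were Actl6a, Bcl7a, Ss18l1, Phf10, Gltscr1 and Smarcd1. Actl6a, an actin-like subunit of both complexes, had 71.8 and 69.4 CPM at 0 h, 80.3 and 92.7 CPM at 8 h, and 31.8 to 51.98 CPM from 24 h. It fell by 1.13 ± 0.18 at 48 h on the log2 scale (edgeR adjusted p = 0.00103), with its 8 h libraries highest, as for Smarcb1. Phf10, a PBAF subunit, had 109 and 114 CPM at 0 h and 51.5 to 81.0 CPM under A-485, lower at all 4 times (-0.65 to -0.97). Bcl7a had 44.8 and 39.4 CPM at 0 h and 15.4 to 37.5 CPM under A-485, and was called lower from 24 h (-0.68 to -1.29). These falls depended on scaling: on the TPM scale at 72 h the change was 0.033 for Bcl7a, -0.10 for Actl6a and -0.13 for Phf10 (limma adjusted p = 0.892, 0.638 and 0.507), while Bcl7a and Phf10 were still called lower at 24 h (-0.70 and -0.45, adjusted p = 0.0159 and 0.0398). The median of all genes on that scale was 0.62 at 72 h, so these genes still lay below the typical gene. With the length trend removed Actl6a lost its 24 and 72 h calls and Phf10 its 8 and 72 h calls (edgeR adjusted p = 0.0542 to 0.117). Without replicate 1 of 0 h or either 72 h library the 72 h call of Bcl7a was lost (adjusted p = 0.0523 to 0.123), without either 0 h library or replicate 2 of 8 h the 8 h call of Phf10 was (0.0859 to 0.138), and without either 0 h library or replicate 1 of 24 h the 24 h call of Actl6a was (0.0573 to 0.0750).

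Smarcd2 was called at none of the 4 times as counted, though at 24, 48 and 72 h with the length trend removed. Its paralog Smarcd1 rose at all 4 times as counted, and the difference between the 2 genes was not tested. It had 35.3 and 41.8 CPM at 0 h and 54.1 to 71.9 CPM under A-485, with changes of 0.61 to 0.83 (edgeR adjusted p = 0.00292 to 0.0161); the 8 h call was lost without replicate 1 of 0 h or replicate 2 of 8 h (0.0889 and 0.0929). Gltscr1, a subunit of the smaller non-canonical complex, had 32.9 and 48.9 CPM at 0 h and 63.7 to 84.5 CPM from 24 h, and was called higher at 24, 48 and 72 h (0.67 to 0.93), though not at 24 h without replicate 1 of 0 h or either 24 h library (edgeR adjusted p = 0.0585 to 0.125). Ss18l1, called higher at 48 and 72 h by 1.38 and 1.25, stayed low throughout, at 5.37 to 15.4 CPM. In the single libraries Bcl7a had 6.75 CPM in mAML, 13.1 CPM in LSC and 46.7 CPM in GMP, so that it lay below GMP by more than 2-fold in both leukemia libraries, and Gltscr1, with 34.7, 30.2 and 14.3 CPM in the same libraries, lay above GMP by more than 2-fold in both, though not with TPM (0.83 in mAML and 0.73 in LSC on the log2 scale) and, in LSC, not with library size alone (0.96). Among 15 ATPase genes of other remodeler families, 14 passed the filter, and those called higher and lower numbered 5 and 1 at 8 h, 6 and 2 at 24 h, 7 and 2 at 48 h, and 6 and 1 at 72 h. Over all genes the shares called higher and lower were 17.9% and 21%, 23.2% and 27.1%, 25.2% and 30.5%, and 25.9% and 29.4%.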

How the data were processed

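RNA of 13 libraries was sequenced after standard Illumina library preparation, per the labels' protocols. The authors deposited, for each library, RSEM tables of 24328 genes with expected counts and TPM values; reads were aligned with STAR to mm9, per the submitters' processing notes, and versions are not given in the sources used here. Whether counting used strand is not stated. Expected counts were rounded, genes filtered with filterByExpr (11119 kept), scaled with TMM and fitted in 1 model of the 10 time-course libraries with edgeR 4.0.16 quasi-likelihood tests (R 4.3.3), each time against 0 h, 72 h against 8 h, and all times together, with Benjamini-Hochberg adjustment over all genes. Each SE was taken from the log2 change and its F statistic. The 3 single libraries were scaled separately and compared by log2 ratios with a prior count of 5, a 2-fold threshold and at least 10 CPM in the higher library. Paralog ratios used exact permutation tests over libraries. Alternatives were other scalings, DESeq2 1.42.0, limma 3.58.1 on log2(TPM + 1), no filter, removal of a loess trend (span 0.3) on log2 effective length, a replicate block, and leaving out each library. The scripts were tested on simulated counts. Members, gene lists and the naming rule (all members; of the other subunits the 6 with the smallest joint adjusted p; for Smarca4 and Smarca2 the 3 best correlated genes) were chosen with earlier results of these data known.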

Additional observations from a re-analysis of the deposited data

Results flagged for a closer look

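The changes from 0 h differed between 8 and 72 h of A-485 for 3 of the 10 genes, by the direct test of 72 h against 8 h (edgeR, Benjamini-Hochberg adjusted p). Of all genes tested, 15.1% were called higher and 17.2% lower in that test, so the share of members called was near that of all genes. For Smarcb1 the 72 h change minus the 8 h change was -0.68 (adjusted p = 0.00453): its changes were -0.43 at 72 h and 0.25 at 8 h, and no fit that left out 1 library ended the call. For Smarcd2 the difference was 0.36 (adjusted p = 0.0311), from changes of 0.12 at 72 h and -0.24 at 8 h, and leaving out either 72 h library, replicate 2 of 8 h or either 48 h library ended the call (adjusted p = 0.0562 to 0.158). For Pbrm1 it was -0.37 (adjusted p = 0.0421), from 0.093 at 72 h and 0.46 at 8 h, and 9 of the 10 fits that left out 1 library ended the call, with adjusted p up to 0.251.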

How the results depend on the processing

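Across the 10 genes and 5 comparisons, all 50 calls and directions were the same with RLE scaling. With library size alone, members called higher numbered 9 at 8 h, 8 at 24 h, 8 at 72 h and 2 at 72 h against 8 h, and members called lower 0 at 24, 48 and 72 h and 1 at 72 h against 8 h. Counts of all genes at the 4 times in that setting are given above. With limma on log2(TPM + 1), 9 were called higher at each of the 4 times and 5 at 72 h against 8 h. Members called lower were 0 at 24, 48 and 72 h and 1 at 72 h against 8 h. Of all 11119 genes, 4859, 5105, 5808 and 6104 were called higher at the 4 times with limma, and 3217 at 72 h against 8 h. Those called lower numbered 1358, 1600, 1743, 1638 and 1240. Removal of the trend on transcript length gave 5 higher at 8 h and 0 lower at 24, 48 and 72 h. DESeq2 gave 0 lower at 24 h and 2 higher at 72 h against 8 h, and the fit with no filter 0 lower at 24 h and 0 higher at 72 h against 8 h. A fit of only the 2 times compared gave 0 lower at 24 h, and 0 higher and 1 lower at 72 h against 8 h. In that fit 1060 of all genes were called higher at 72 h against 8 h, in place of 1675. Counts of all genes with the length trend removed, with DESeq2 or with no filter are not given here.

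Directions reversed with library size alone and with TPM for Smarcd2 at 8 h (0.078 and 0.19), Smarca4 at 48 h (0.32 and 0.63), Smarcc1 at 48 h (0.21 and 0.51) and 72 h (0.33 and 0.65) and Arid1b at 72 h against 8 h (0.00016 and 0.20). With TPM alone, Smarcb1 reversed at 24, 48 and 72 h (0.12, 0.19 and 0.27, limma adjusted p = 0.394, 0.181 and 0.0666). The median of all genes with TPM was 0.41, 0.43, 0.56 and 0.62 at 8, 24, 48 and 72 h. Bcl7a reversed with TPM at 8 h and 72 h (0.066 and 0.033); settings for the other subunits were added after seeing the data. With library size alone, 9, 9, 10 and 10 of the 16 other subunits were called higher at the 4 times and 0, 2, 3 and 0 lower. With TPM these were 10, 9, 10 and 10 higher and 0, 2, 0 and 0 lower. Both sets of counts are to be read against those of all genes, given above for library size alone and for TPM. With TPM, 4859 to 6104 of 11119 genes were called higher at the 4 times. With the length trend removed Pbrm1 at 48 h reversed (-0.069, with or without the replicate block). These settings change the level of the typical gene by construction; other causes were not tested. In mAML against GMP, 1 member, Smarcc1, was at least 2-fold lower with library size alone, with TPM and with the length trend removed, against 0 as reported. The median of all genes was -0.21, -0.28 and -0.23 in these settings.

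Leaving out each library in turn, members called higher ranged over 1 to 5 at 8 h, 2 to 4 at 24 h, 3 to 5 at 48 h, 2 to 4 at 72 h and 0 to 1 at 72 h against 8 h, and members called lower over 0 to 1 at 24, 48 and 72 h and 1 to 4 at 72 h against 8 h. A time left with 1 library is assumed to vary like the others. Calls over all genes also became fewer in several of these fits, so a loss of calls was not particular to the members. Small changes reversed in these fits: Smarca4 at 24 h (-0.028 to 0.34), 48 h (-0.038 to 0.038) and 72 h (-0.067 to 0.32), Smarcc1 at 48 h (-0.30 to 0.040) and 72 h (-0.29 to 0.19), Pbrm1 at 72 h (-0.061 to 0.24) and Arid1b at 72 h against 8 h (-0.32 to 0.17), and of the other subunits Ss18l1 (-0.066 to 0.51) and Gltscr1 (-0.082 to 0.49) at 8 h.

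Replicate deviations of the same number correlated between times at -0.41 to 0.64, so the numbers do not mark a pairing that holds over all times. Some times did share replicate differences, as given under other observations. The replicate block takes the numbers as given and so does not model those shared differences. It left 48 of 50 results as they were. Arid1b at 48 h (0.61, edgeR adjusted p = 0.0567) and Pbrm1 at 72 h against 8 h (-0.37, edgeR adjusted p = 0.0510) were no longer called, leaving 1 member called lower in the latter comparison. With the block and the length trend removed together, 0 members were called lower at 24, 48 and 72 h. The 3 paralog differences kept their direction with the length trend removed and in the 10 fits that left out 1 library. None was called, but 1 ratio alone could not have passed 0.05 after adjustment over the 3 in any of these settings. With 1 untreated library that test could not have reached 0.05. Intervals between the single libraries cover counting error only.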

Other observations

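The difference between replicates 1 and 2 correlated over all 11119 genes at 0.64 between 8 and 24 h, and at -0.40 and -0.41 between those times and 72 h. Among the members, Smarca4, Smarcc1 and Arid1b were higher in replicate 2 of 8 h and of 24 h, by 0.14 to 0.45 on the log2 scale, and higher in replicate 1 of 72 h, by 0.38 to 0.49.

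The transcript length that RSEM assigned to Smarca2, an average weighted by isoform abundance, was 5813 nt in each treated library and 5813 and 5759 nt at 0 h, against 5781 nt in mAML, 5422 nt in LSC and 5624 nt in GMP. For Smarcd2 it was 2669 to 2740 nt in the time course, against 2605 nt in mAML, 2552 nt in LSC and 2494 nt in GMP. Smarca2 stood at 26.1 and 28.2 TPM in the untreated cells of the time course and at 20.9 TPM in the separate LSC library, although both carry the label of leukemia stem cell; no test compares them.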
